A study of Homo sapiens with 24 samples.

Results

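The clustered gamma protocadherins PCDHGA1 to PCDHGA10 were followed in 24 RNA sequencing libraries of A2058 cells, an established human melanoma line. The 10 genes were found by matching the Ensembl identifiers of the deposited count table to the GENCODE annotation of hg19, and they are 10 of the 20345 genes listed there. The group was drawn around PCDHGA2, whose polysomal change with hydroxyurea in LSM14A-depleted cells was the reason for the choice, so its values in that contrast are given below as a description, with no test.

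Protocadherins are cadherin-related adhesion proteins of the cell surface, best known in the nervous system, where each neuron shows its own combination of isoforms and recognises neurons that show the same one. The gamma genes lie in tandem. Each has a large variable exon of its own, with its own promoter, that encodes the extracellular cadherin repeats, the transmembrane segment and a short piece of the cytoplasmic tail. This exon is spliced to a set of constant exons at the end of the cluster that encode the tail shared by all gamma isoforms. The A and B subfamilies alternate along the cluster, and the C genes, which differ more in sequence, close it.

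The cells carried a scrambled siRNA (siCTRL) or an siRNA against LSM14A (siLSM14A), an RNA-binding protein of cytoplasmic mRNP granules. They were left untreated (NT) or were given 10 mM hydroxyurea (HU) for 2 h, which slows DNA replication by depleting deoxynucleotides. Each of the 4 conditions has 3 replicates, and each replicate number has 1 library of total RNA and 1 of RNA from the heavy polysome fractions, where mRNAs loaded with many ribosomes sediment. The labels number the replicates but do not say that they were separate cultures, so p-values measure the spread between these samples, which may be technical.

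The libraries held 24789280 to 44897501 counts. LSM14A was at 80.9 to 91.0 CPM (counts scaled to a common library total) in siCTRL total RNA and 6.14 to 8.31 CPM in siLSM14A total RNA, and at 29.3 to 54.4 CPM against 1.74 to 2.72 CPM in polysomal RNA, so each library matched its siRNA label. The melanocyte lineage genes SOX10 (550 to 666 CPM), DCT (653 to 912 CPM) and PMEL (306 to 381 CPM) were high in all 12 total RNA libraries, whereas the melanocyte antigen gene MLANA was at 5.48 to 10.2 CPM. AXL, a receptor kinase often high in less differentiated melanoma cells, was at 160 to 208 CPM, while the leukocyte gene PTPRC did not exceed 0.217 CPM and the keratin KRT5 was at 0.

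In hg19 all gamma genes lie on the plus strand of chromosome 5, and the 22 genes annotated there share the constant exons at 140874374 to 140874432, 140884960 to 140885048 and 140890514 to 140892542. A read inside those exons fits every gene of the cluster, so a count given to a single member comes from its variable exon. PCDHGA2 spans 140718327 to 140892542. The variable exon of its spliced transcript runs from 140718327 to 140720962, and a longer annotated form of that exon holds 4543 bases that belong to no other gene, which is 67.6% of the exonic length of the gene. The splice junctions below show how members differ before the junction and are the same after it. They are read from hg19, plus strand, with the last 20 bases of the variable exon in lower case and the first 10 bases of the first constant exon in capitals.
PCDHGA2: gagaagaaacgttttctcagCAAGCCCCGC
PCDHGA3: gagattccaacctacttcagCAAGCCCCGC
PCDHGA4: aaggagaccctaatcttcagCAAGCCCCGC
PCDHGA9: aagacacccctttggttccgCAAGCCCCGC
PCDHGA10: aggataccccattggttccaCAAGCCCCGC

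The coding parts of the 10 variable exons were 2421 to 2514 bases long. The one closest to PCDHGA2 was that of PCDHGA3, with 79.8% identical positions in a global alignment, and the most distant was that of PCDHGA4, with 71.7%. Stretches of 100 bases that recur elsewhere in the cluster made up 4.13% of the coding part of the PCDHGA2 exon and 10.9% of that of PCDHGA3, the highest share among the members. In PCDHGA4, PCDHGA5, PCDHGA7 and PCDHGA9 the share was 0%. Most positions could therefore be assigned by sequence, although annotated long forms of the PCDHGA8 and PCDHGB4 exons overlap, and counts of that pair are uncertain. No annotated antisense gene overlaps the members' own exons.

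Each variable exon is read from its own promoter, and the promoters carry a short common element. RefSeq promoter windows, from 250 bases before to 50 bases after the annotated start in GRCh38.p14, were at hand for all 10 members. In these windows the letters CGCT were found in 10 of 10 on either strand, as in 70% of all 35116 windows of the same length. The longer stretch CGCTGTT, which contains CGCT and was chosen after the members' sequences had been seen, was found in 10 of 10 members and in 2.26% of all windows. TATAAA was found in 2 of 10 members, PCDHGA2 and PCDHGA4, and in 11.5% of all windows. The element is shown for the same members as above, on the plus strand, with CGCT in capitals.
PCDHGA2, chr5:141338706-141338735: ggcctctgagcgtCGCTgttgaccacctaa
PCDHGA3, chr5:141343770-141343799: ggcctcttagtgtCGCTgttgaccactcaa
PCDHGA4, chr5:141354963-141354992: agactctgggtgtCGCTgttcaccaatcag
PCDHGA9, chr5:141402717-141402746: ggactctgagcgcCGCTgttgatcaactct
PCDHGA10, chr5:141412934-141412963: ggactctgagcgcCGCTgttcacctactag

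All 10 members were low in A2058 cells, and in bulk RNA a low level in every cell cannot be told apart from a higher level in a few cells. Their counts in total RNA ran from 3 to 15 for PCDHGA5 to 52 to 103 for PCDHGA10, and together the members made 6.8 to 8.45% of the counts assigned to gamma genes in total RNA and 9.25 to 14.4% in polysomal RNA. PCDHGC3, a C-type gene, made 76.3 to 78.5% and 68.9 to 76% of them. On a scale of CPM per kb of exon that belongs to the gene alone, PCDHGA9 had the highest total RNA level among the members, 0.722 ± 0.135 (SD, n = 12 libraries), followed by PCDHGA4 (0.634 ± 0.0907), PCDHGA7 (0.505 ± 0.0812), PCDHGA10 (0.44 ± 0.0489), PCDHGA3 (0.329 ± 0.0765) and PCDHGA2 (0.252 ± 0.0307). PCDHGA6 (0.145 ± 0.0244), PCDHGA1 (0.139 ± 0.0352), PCDHGA8 (0.076 ± 0.0276) and PCDHGA5 (0.0675 ± 0.0246) were lower. The library ranges of neighbours in this order overlapped, except between PCDHGA2 (lowest 0.21) and PCDHGA6 (highest 0.181). In polysomal RNA PCDHGA9 was again first with 1.44 ± 0.446 and PCDHGA2 was again sixth with 0.261 ± 0.0984.

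**Figure D1:**
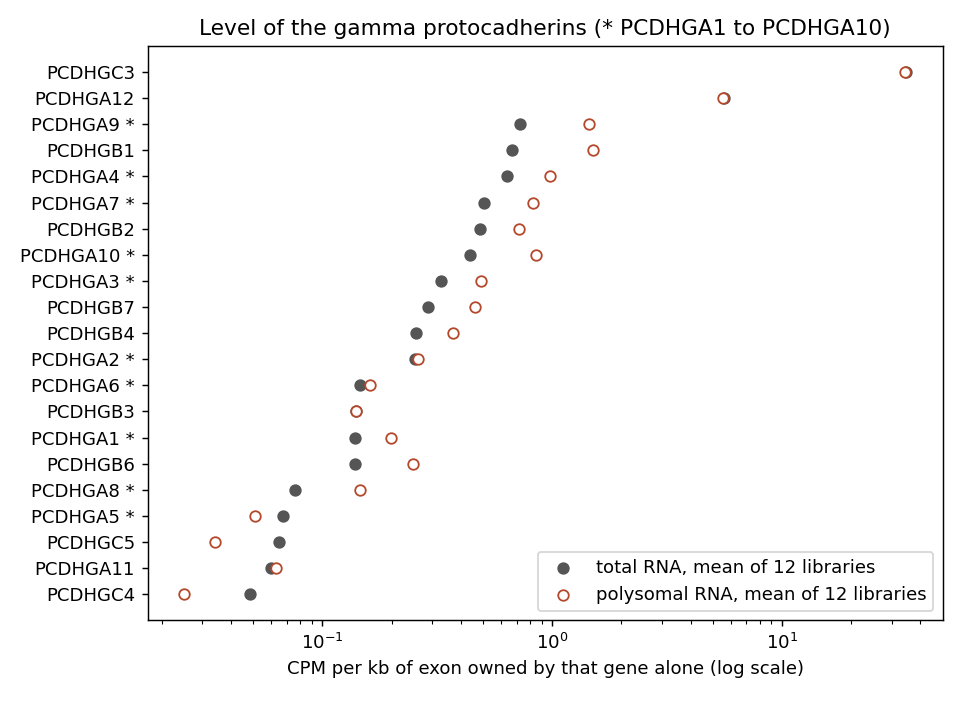
Mean level of each gamma protocadherin in total RNA (filled) and polysomal RNA (open), 12 libraries each, on a log axis of CPM per kb of exon owned by that gene alone. The members, marked with an asterisk, lie at 0.0675 to 0.722 in total RNA, far below PCDHGC3 (34.8) and PCDHGA12 (5.57).

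PCDHGA2 had 29 to 61 counts in total RNA libraries and 15 to 53 in polysomal libraries. The exact Poisson 95% interval of a count of 15 is 8.4 to 24.7 and that of 61 is 46.7 to 78.4, so single libraries of this gene carry wide counting error, and these intervals cover counting error only. In siCTRL polysomal RNA PCDHGA2 had 51, 45 and 47 counts without HU and 33, 15 and 28 with HU. In siLSM14A polysomal RNA it had 25, 26 and 24 counts without HU and 46, 53 and 50 with HU. The HU groups thus lay below the untreated group in siCTRL cells and above it in siLSM14A cells, and in neither siRNA did they overlap.

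After normalisation for library size and composition the same order was seen. Polysomal PCDHGA2 was at 1.28, 1.3 and 1.71 CPM in siCTRL NT, at 1.04, 0.481 and 1.02 CPM in siCTRL HU, at 0.73, 1.01 and 0.686 CPM in siLSM14A NT, and at 1.34, 1.94 and 1.71 CPM in siLSM14A HU. The untreated siCTRL libraries and the HU-treated siLSM14A libraries covered like ranges. In total RNA the gene was at 1.07, 1.17 and 1 CPM in siCTRL NT, at 1.13, 1.09 and 1.03 CPM in siCTRL HU, at 1.32, 1.36 and 1.32 CPM in siLSM14A NT, and at 1.03, 0.953 and 1.26 CPM in siLSM14A HU. Total RNA differed less than polysomal RNA, and the untreated siLSM14A libraries stood a little above the other 3 conditions.

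**Figure D2:**
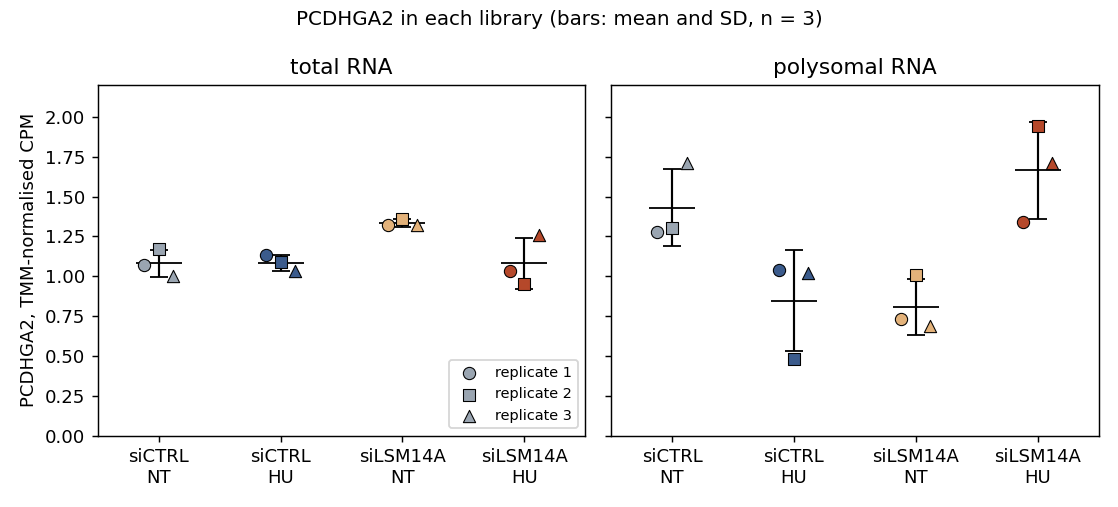
PCDHGA2 in TMM-normalised CPM in the total RNA (left) and polysomal RNA (right) libraries of the 4 conditions, with the mean and SD of 3 replicates and a symbol for each replicate number. Polysomal values lie at 1.28 to 1.71 without and 0.481 to 1.04 with HU in siCTRL cells and at 0.686 to 1.01 without and 1.34 to 1.94 with HU in siLSM14A cells.

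In the siLSM14A contrast used to choose the gene, polysomal PCDHGA2 was higher with HU by 1.05 on the log2 scale (SE 0.305, a fold of 2.06) and total PCDHGA2 differed by -0.30 (SE 0.209), with every HU library below every untreated one. Translational efficiency (TE), the change of polysomal RNA relative to that of total RNA, differed by 1.34 on the log2 scale (SE 0.326, a fold of 2.53). Of 12660 genes fitted 37 had a larger TE change, a rank from which nothing is read because the gene was chosen on this contrast. No gene passed an adjusted p of 0.05 in this TE contrast in edgeR, where 179 genes had an unadjusted p under 0.05, nor in DESeq2.

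In siCTRL cells, which the choice did not use, the estimates for PCDHGA2 had the opposite sign in polysomal RNA and TE. Its polysomal level differed with HU by -0.75 on the log2 scale (SE 0.354), its TE by -0.75 (SE 0.381) and its total RNA by -0.01 (SE 0.212). These changes did not pass the test in edgeR's quasi-likelihood fit with Benjamini-Hochberg adjustment over all genes: the adjusted p was 0.933 for polysomal RNA (unadjusted 0.0531) and 0.956 for TE (unadjusted 0.0702). Of 12315 genes 61 had a lower polysomal change. Without the second HU replicate, the library with 15 counts, the polysomal difference was -0.47 and the TE difference -0.45. That polysomal library was the lowest of the 3 for 7 of 10 members, PCDHGA2 among them. The summed level of the members was 14.9 CPM in it beside 18.9 and 22.9. PCDHGC3, outside the group, was at 71.7 CPM in it beside 122 and 134.

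The 2 siRNA conditions were also set side by side at each treatment. Without HU, PCDHGA2 differed between siLSM14A and siCTRL by -0.83 (SE 0.32) in polysomal RNA, by 0.30 (SE 0.192) in total RNA and by -1.12 (SE 0.315) in TE. With HU it differed by 0.98 (SE 0.34), by 0.00 (SE 0.216) and by 0.97 (SE 0.388). These log2 differences share libraries with the contrast that chose the gene and carry no test. The difference between the HU effects on TE in siLSM14A and in siCTRL, the interaction, was 2.09 (SE 0.482) for PCDHGA2. A larger one was found for 35 of 12855 genes. The interaction includes the contrast that chose the gene, so nothing is read from this rank.

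The neighbours on either side of PCDHGA2 were then compared with it in the same contrast, siLSM14A HU against siLSM14A NT. PCDHGA5 did not pass the filter on low counts. The other 8 neighbours all had estimates above 0, at 0.12 to 0.89 in TE (median 0.47) and 0.22 to 0.95 in polysomal RNA (median 0.48). The median of all genes was 0.01 in both, and 51% of them lay above 0 in TE and 52.3% in polysomal RNA. The estimates of PCDHGA2 were above those of all 8 neighbours with all libraries, but in polysomal RNA this order turned when single libraries were left out. PCDHGA6 was then above PCDHGA2 in 4 of 6 fits, at 1.02 against 0.98 without the first NT replicate, 1.12 against 0.94 without the third NT replicate, 0.98 against 0.92 without the second HU replicate, and by under 0.01 without the first HU replicate. In TE PCDHGA2 was above the neighbours in all 6. With all libraries PCDHGA6 came nearest in polysomal RNA, at 0.95 (SE 0.383), followed by PCDHGA4 at 0.87 (SE 0.358), PCDHGA10 at 0.63 (SE 0.276) and PCDHGA9 at 0.54 (SE 0.324), and the SE interval of PCDHGA2 overlapped those of 6 of 8 neighbours, all but PCDHGA1 and PCDHGA3. In TE it overlapped those of 3 of 8, PCDHGA4, PCDHGA6 and PCDHGA8. PCDHGA3, the neighbour with the most similar exon, stood at 0.22 (SE 0.282) in polysomal RNA, the lowest of the 8 there, and at 0.33 (SE 0.359) in TE, where PCDHGA7 was the lowest at 0.12.

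The HU and untreated siLSM14A libraries did not overlap for 4 of the 9 fitted members in polysomal RNA, PCDHGA2, PCDHGA4, PCDHGA6 and PCDHGA8, all higher with HU, beside 2.12% of all genes. For TE, taken as the ratio of libraries with the same replicate number, this held for 3 of 9, PCDHGA2, PCDHGA6 and PCDHGA10, beside 1.92% of all genes. Since PCDHGA2 was chosen on this contrast and the members share the same libraries, nothing is read from these counts. In total RNA PCDHGA7 was higher without overlap (6.16% of all genes) and PCDHGA2 was lower without overlap (5.63%).

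Among the neighbours the untreated siLSM14A polysomal libraries differed from each other. PCDHGA7 had 92, 21 and 96 counts there, PCDHGA9 had 119, 50 and 114, and PCDHGA4 had 67, 37 and 67. The second replicate was the lowest of the 3 for 7 of 10 members, and the summed level of the members was 15.3, 10.3 and 15 CPM. PCDHGA2 was not low in that library, with 26 counts beside 25 and 24. In siLSM14A HU the second replicate was the highest for 6 of 10 members, with a summed level of 27.1 CPM beside 18.6 and 17.2. PCDHGA2 was among these 6, at 1.94 CPM beside 1.34 and 1.71. PCDHGA4 had 145 counts in it beside 68 and 76, and PCDHGA9 had 169 beside 131 and 82.

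The other neighbours gave the following polysomal counts in siLSM14A cells. PCDHGA10 had 100, 61 and 116 counts without HU and 148, 166 and 90 with HU. PCDHGA3 had 45, 31 and 36 without HU and 46, 45 and 34 with HU. PCDHGA1 had 31, 16 and 21 without HU and 37, 18 and 28 with HU. The groups of each of these genes overlapped, as counts and as CPM. PCDHGA8 had 16, 11 and 17 counts without HU and 25, 17 and 15 with HU, and its groups were apart after scaling to library size, at 0.427 to 0.486 CPM against 0.513 to 0.73 CPM, but not as counts. PCDHGA5 was near the limit of detection, with 4, 0 and 7 counts without HU and 19, 4 and 3 with HU, and a change in it was not detectable at this depth.

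Replicates of the best counted neighbours also differed from each other in siCTRL polysomal RNA. PCDHGA9 had 182, 114 and 118 counts without HU and 130, 106 and 163 with HU. PCDHGA10 had 185, 139 and 93 without HU and 126, 87 and 134 with HU. In total RNA PCDHGA9 ran from 1.43 to 2.82 CPM over the 12 libraries and PCDHGA10 from 1.62 to 2.35 CPM. The summed level of the 10 members was 9.7 to 12.8 CPM in total RNA. The second replicates of siLSM14A NT and siLSM14A HU were at 11.3 and 12 CPM there, inside the range of the others.

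The estimates were also taken without both of these replicates. They were left out because many members were extreme in them, which PCDHGA2 was not in the untreated one, so lower estimates for the neighbours follow in part from that choice and nothing is read from them about PCDHGA2. The median of the 8 neighbours was then 0.24 in polysomal RNA and 0.16 in TE, with 6 of 8 and 5 of 8 above 0, and PCDHGA2 was at 1.10 and 1.30. PCDHGA4 went from 0.87 to 0.23 in polysomal RNA and from 0.63 to -0.09 in TE, PCDHGA7 from 0.38 to -0.10 and from 0.12 to -0.34, and PCDHGA9 from 0.54 to -0.02 and from 0.18 to -0.21. PCDHGA6 was the neighbour with the largest remaining estimates, 0.78 in polysomal RNA and 0.77 in TE. In its libraries PCDHGA6 had 24, 11 and 27 polysomal counts without HU and 29, 33 and 50 with HU.

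**Figure D3:**
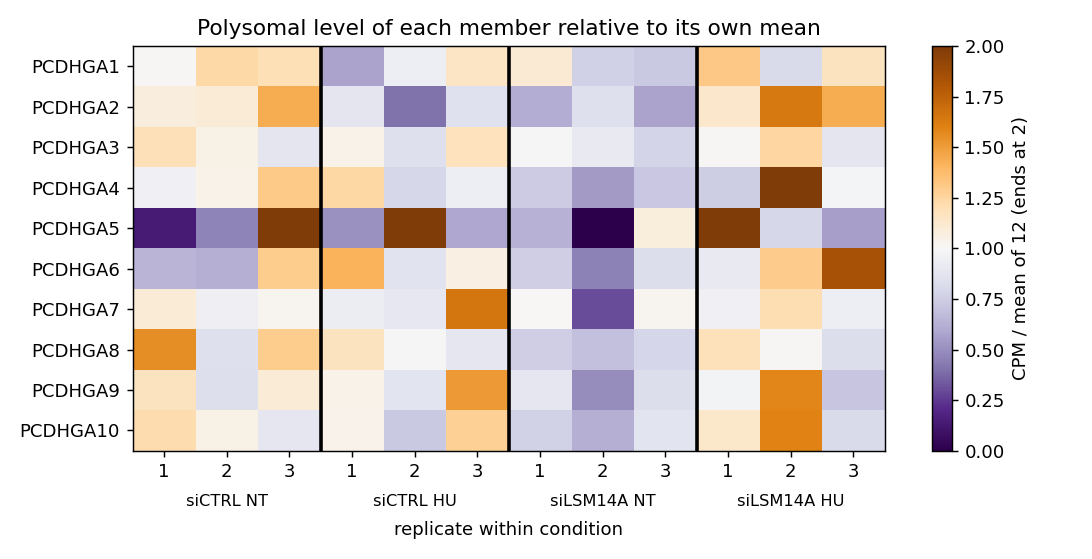
Polysomal CPM of each member in the 12 polysomal libraries, divided by the mean of that gene over the 12, with the colour scale ending at 2. The second siLSM14A NT library is dark violet for PCDHGA7, PCDHGA9 and PCDHGA4 and only slightly below the mean for PCDHGA2. The second siLSM14A HU library is dark orange for PCDHGA2, PCDHGA4, PCDHGA9 and PCDHGA10.

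In siCTRL cells the neighbours' estimates had no common direction. Of 9 neighbours fitted for TE 3 lay above 0 and 6 below (median -0.12), and of 8 fitted in polysomal RNA 3 lay above and 5 below (median -0.05). PCDHGA6 was the highest, at 0.41 (SE 0.383) in polysomal RNA, and PCDHGA1 the lowest, at -0.38 (SE 0.354). By edgeR 0 of 10 members were called for TE, 0 of 9 in polysomal RNA and 0 of 10 in total RNA, as were 0% of all genes in each. A fit blocked on replicate called 15 genes in total RNA and 1 in polysomal RNA, none of them a member. DESeq2 also called 0 members, and 0 had an unadjusted p under 0.05. PCDHGA2 was the 1 member whose groups did not overlap, lower with HU in polysomal RNA and in TE, which held for 4.36% and 3.84% of all genes.

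**Figure D4:**
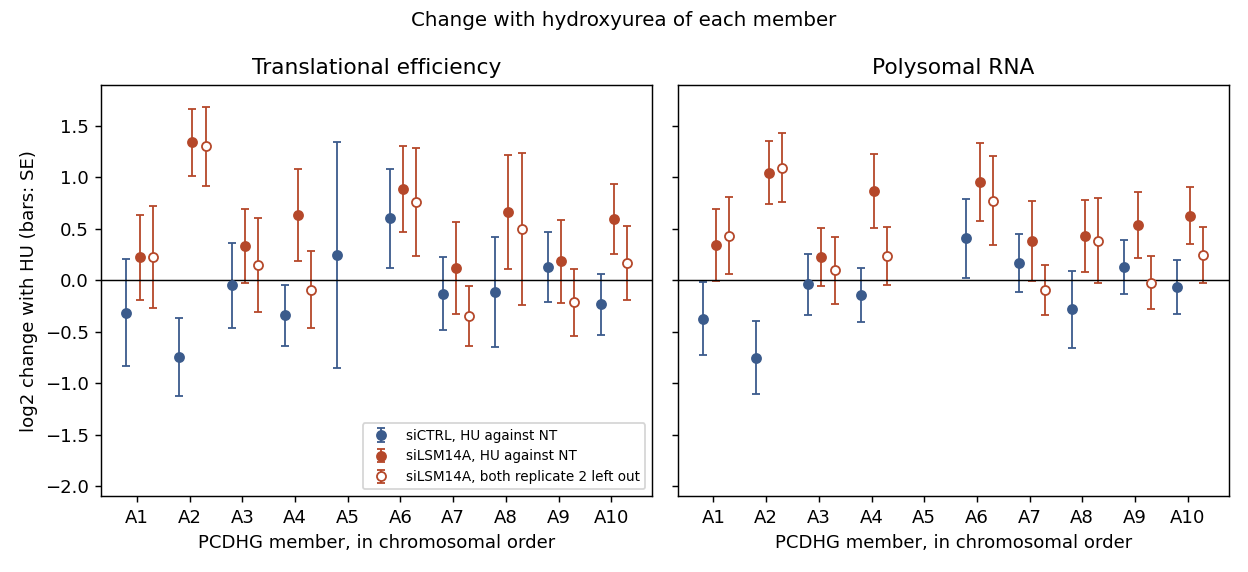
log2 change with HU of each member in TE (left) and polysomal RNA (right), with SE, for siCTRL cells (blue), siLSM14A cells (filled red) and siLSM14A cells without both replicate 2 samples (open red). PCDHGA2 lies at -0.75 in siCTRL and at 1.05 to 1.34 in siLSM14A cells, and the open points rest on libraries left out after the members' values had been seen.

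Without HU, no neighbour passed the test in siLSM14A against siCTRL. Estimates lay below 0 for 8 of 8 neighbours in polysomal RNA (median -0.44) and 9 of 9 in TE (median -0.42), beside a median of -0.01 over all genes in both. The other gamma genes lay below 0 for 9 of 9 in polysomal RNA (median -0.67) and 8 of 9 in TE (median -0.49). PCDHGA4 (-0.72, SE 0.267) had the smallest unadjusted p, 0.0218, and an adjusted p of 0.9998 in edgeR. The polysomal groups of PCDHGA2, PCDHGA4, PCDHGA8 and PCDHGA10 did not overlap, 4 of 9 members beside 3.58% of all genes, and in TE those of PCDHGA2, PCDHGA4, PCDHGA9 and PCDHGA10 did not, 4 of 10 beside 2%. Among the neighbours edgeR called 0 of 8 in polysomal RNA (0.0162% of all genes), 0 of 9 in TE (0%) and 0 of 9 in total RNA (0.566%), with 1, 0 and 0 at an unadjusted p under 0.05 and 0 called by DESeq2. This comparison rests on the same untreated siLSM14A libraries as the HU contrast, the low second replicate included. PCDHGA2 was chosen on that contrast and the members share these libraries. Nothing is therefore read from the counts of groups that did not overlap. Without that replicate the neighbours' medians were -0.28 in polysomal RNA and -0.21 in TE, and PCDHGA2 stood at -0.99 and -1.29.

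With HU, polysomal differences between siLSM14A and siCTRL were small for the neighbours, from -0.16 for PCDHGA7 to 0.33 for PCDHGA1, with a median of 0.13. In TE the 9 neighbours ran more widely, from -0.345 to 1.08 with a median of 0.14. The highest, above the TE estimate of PCDHGA2, was PCDHGA5, which was near the limit of detection. Its polysomal counts were 19, 4 and 3 in siLSM14A HU and 3, 12 and 3 in siCTRL HU. By edgeR 0 of 8 neighbours were called in polysomal RNA (0.0653% of all genes), 0 of 9 in TE (0%) and 0 of 8 in total RNA (0.802%, or 100 genes, against 855 genes and no member with a replicate block), with 0 at an unadjusted p under 0.05 and 0 called by DESeq2. PCDHGA2 was the 1 member whose groups did not overlap, in polysomal RNA (4.65% of all genes) and in TE (4.74%), higher in siLSM14A. Its siLSM14A HU libraries belong to the contrast that chose it, so nothing is read from this.

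Where the members sat on the gradient was compared within siCTRL cells, which gives a test that the choice did not use. In untreated siCTRL cells 5 of 10 members were higher in polysomal than in total RNA relative to the other genes of each library, as were 31.4% of all genes, and 63.8% were called in either direction. They were PCDHGA9 (1.11, SE 0.212, adjusted p = 0.00228), PCDHGA10 (1.10, SE 0.186, adjusted p = 0.00133), PCDHGA8 (1.09, SE 0.388, adjusted p = 0.0353), PCDHGA7 (0.89, SE 0.196, adjusted p = 0.00435) and PCDHGA4 (0.82, SE 0.207, adjusted p = 0.00851) on the log2 scale, by edgeR. For PCDHGA9 the total RNA counts were 59, 61 and 68 and the polysomal counts 182, 114 and 118. PCDHGA2 was at 0.38 (SE 0.227, adjusted p = 0.167), PCDHGA6 at -0.15 and PCDHGA5 at -0.71, none of which passed. PCDHGA8 lost its call without any single replicate and in DESeq2. Without the second replicate PCDHGA9 and PCDHGA10 alone were called, and after correction for GC content PCDHGA4 was not.

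With HU, 4 of 10 members were higher in siCTRL polysomal RNA, PCDHGA9 (1.25, adjusted p = 0.000949), PCDHGA10 (0.88, adjusted p = 0.00508), PCDHGA7 (0.77, adjusted p = 0.0259) and PCDHGA8 (0.99, adjusted p = 0.0272), as were 36.2% of all genes, and 73.5% were called in either direction. PCDHGA2 stood at -0.35 (adjusted p = 0.325). The members called in both conditions, PCDHGA7 to PCDHGA10, are the last 4 of the group in chromosomal order. Among the other gamma genes PCDHGB1, which lies early in the cluster, was called in both conditions (adjusted p = 0.00264 and 0.00704, edgeR), and PCDHGA12, which lies after PCDHGA10, in neither (0.22 and -0.01 on the log2 scale). Without the first HU replicate PCDHGA9 alone was called, DESeq2 did not call PCDHGA8, and after GC correction PCDHGA7 was not. A blocked fit on the replicate number added PCDHGA3 (adjusted p = 0.0362).

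**Figure D5:**
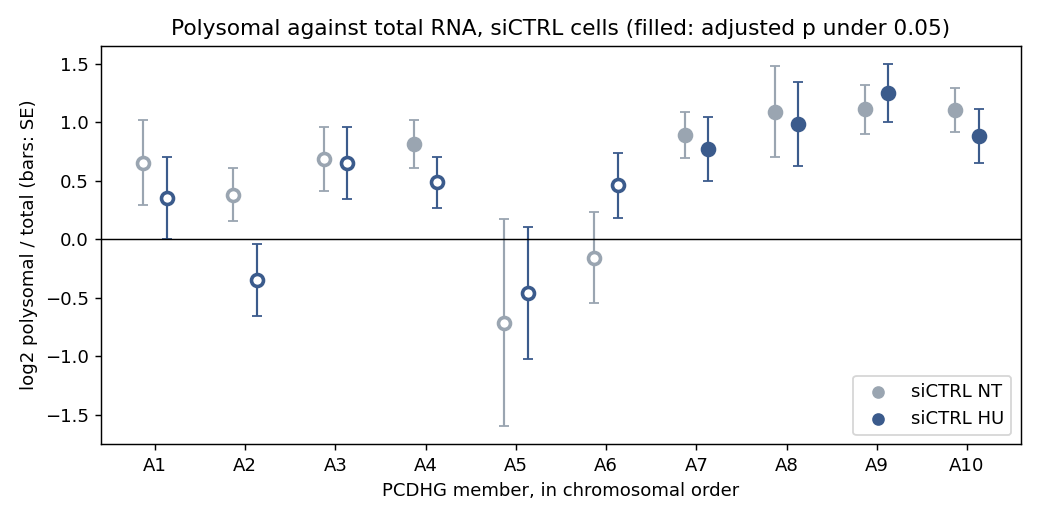
log2 ratio of polysomal to total RNA for each member in siCTRL cells without HU (grey) and with HU (blue), with SE, filled where the adjusted p was under 0.05. PCDHGA9 and PCDHGA10 lie near 1 in both conditions, while PCDHGA2 is at 0.38 and -0.35.

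The rest of the protocadherin locus was read in the same way, with PCDHGB5 not analysed here. Of the other gamma genes 9 of 11 listed in the table could be fitted for TE in siLSM14A HU against NT, 7 above 0 with a median of 0.38, and 8 of 8 lay above 0 in polysomal RNA with a median of 0.47. PCDHGC3 had 2729, 1401 and 4167 polysomal counts in siLSM14A NT and 3223, 3968 and 3052 in siLSM14A HU, with a polysomal difference of 0.43 (SE 0.267). At counts of this size the low second NT replicate is outside counting error. PCDHGA12 differed by 0.35 (SE 0.3) and PCDHGB1 by 0.50 (SE 0.296). The highest of the other gamma genes was PCDHGB7, at 1.11 (SE 0.492) in polysomal RNA and 1.17 (SE 0.601) in TE. Its polysomal estimate was above the 1.05 of PCDHGA2, and its groups overlapped in both measures. PCDHGA11 was the lowest in TE, at -1.30 (SE 0.721). The beta genes, single-exon neighbours of the cluster, had 8 of 9 estimates above 0 in TE (median 0.33), and the alpha genes 3 of 5 (median 0.18). Among the beta genes PCDHB14 was the highest in TE, at 1.585 (SE 0.748), above the 1.34 of PCDHGA2, and PCDHB13 the lowest, at -0.35. PCDHB14 had 13, 1 and 7 polysomal counts in siLSM14A NT and 22, 12 and 7 in siLSM14A HU. Non-clustered protocadherins had 5 of 7 (median 0.15). In siCTRL cells the TE medians were -0.20 for the other gamma genes, 0.19 for the beta genes and -0.31 for the alpha genes, and edgeR called 0 in each list.

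Chromatin proteins that act on the locus include CTCF, which loops promoters to enhancers, and the cohesin subunits RAD21 and SMC3. In siLSM14A HU against NT 14 of 15 had TE estimates above 0 (median 0.22), beside 51% of all genes. By edgeR 0 were called, and 0 had groups apart. SMC3 was the highest, at 0.50 (SE 0.427), and its untreated siLSM14A polysomal libraries ran from 34.4 to 95.7 CPM. In siCTRL HU against NT 5 of the 15 lay above 0. Of the cytoplasmic partners and proteases of protocadherins and the catenins 7 of 10 lay above 0 in siLSM14A cells, with a median of 0.07. In siCTRL cells 4 of 10 did.

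Across all 24 libraries the genes whose log2 CPM most resembled that of PCDHGA2 were RTEL1 (Pearson's r = 0.583), EHHADH (0.577), IRX5 (0.564), IGFBP5 (0.559) and MYOZ3 (0.555), out of 12855 genes. The libraries of 1 fraction share their isolation and depth, and the values are a description. Within polysomal RNA alone their r was 0.592 to 0.764, and within total RNA it was 0.494 for EHHADH, 0.223 for RTEL1, 0.222 for IRX5, 0.111 for MYOZ3 and -0.21 for IGFBP5. None of the 5 is a protocadherin. Within the gamma cluster PCDHGC3 was the most alike (0.441), then PCDHGB4 (0.386) and PCDHGA4 (0.38), whereas PCDHGA7 (0.035) and PCDHGA9 (0.073) were near 0. Over the 12 polysomal libraries alone the order was another, with PCDHGB4 at 0.634, PCDHGA4 at 0.621, PCDHGB1 at 0.535 and PCDHGA10 at 0.517 before PCDHGC3 at 0.486, and PCDHGA9 at 0.296. Over the same libraries PCDHGA9 followed the summed level of the members with r = 0.938, PCDHGA10 with 0.906 and PCDHGA4 with 0.845, each being part of the sum, and PCDHGA2 did so with 0.553. The slope of polysomal level on GC content varied between these libraries from -0.28 to 0.24 log2 units per 10 GC points, and its part in the shared variation was not tested.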

How the data were processed

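Total RNA and RNA of pooled heavy sucrose gradient fractions were sequenced with a stranded poly(A) kit. The authors deposited raw read counts per gene, made with STAR 2.6.1a on hg19 per the labels and with a GENCODE annotation per their methods. The pooled fractions are described in more than 1 way in the methods. The labels give A2058 for every library, while a legend in the study names A375 cells for this comparison, and the labels were followed. All 24 columns were used and 0 were left out.

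Of 20345 identifiers 19637 matched the annotation used here (GENCODE for hg19) and 19086 were protein-coding. Counts were tested with edgeR 4.0.16 (TMM factors, filterByExpr with a minimum count of 10, quasi-likelihood F-test, R 4.3.3), with Benjamini-Hochberg adjustment over all genes tested. TE is the interaction of fraction and condition in 1 model. An SE is the estimate divided by the root of F. Displayed CPM use TMM factors over 24 libraries. Alternatives were DESeq2 1.42.0, RLE factors, other filters, a GC correction, a replicate block and leaving out replicates. Sequences came from hg19 and RefSeq (GRCh38.p14), aligned with Biopython 1.88. The tests were also run on simulated counts, drawn independently for each gene with the same dispersion. That check does not show how the tests behave on these replicates.

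All 10 members, the gene lists and the 5 genes most like PCDHGA2 (highest Pearson's r of log2 CPM) were named by rule, and members and lists were chosen with earlier results of these data known. Samples with the same replicate number deviated together in siCTRL HU and NT, with correlations of 0.27, 0.25 and 0.19 in total RNA and 0.25, 0.18 and 0.45 in polysomal RNA, and in total RNA of siLSM14A HU and siCTRL HU (0.33, 0.18 and 0.25), but not in the other condition pairs. Some results are not reported here.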

Additional observations from a re-analysis of the deposited data

Results flagged for a closer look

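PCDHGA2 drew attention because its 3 HU values lay on opposite sides of its 3 untreated values under the 2 siRNAs, with no overlap in either. The siCTRL difference did not pass the test in edgeR (adjusted p = 0.933 in polysomal RNA and 0.956 in TE) and was -0.47 in polysomal RNA without the second HU replicate. Its polysomal level differed by 1.05 on the log2 scale with HU in siLSM14A and by -0.75 in siCTRL. Its translational efficiency differed by 1.34 in siLSM14A and by -0.75 in siCTRL. The difference between the siRNAs was not tested, because the siLSM14A contrast was used to choose the gene. Among the 10 members it was the 1 gene with this pattern. Part of the pattern is the contrast that chose PCDHGA2, and its share over all genes was not counted, so nothing is read from this. Groups of 3 replicates are too small for a test of single outlying samples.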

How the results depend on the processing

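No called member changed sign under an alternative, and the number of members called in contrasts between conditions was 0 in all of them. Leaving out 1 replicate at a time gave PCDHGA2 changes of 1.15 to 1.50 in TE and 0.92 to 1.22 in polysomal RNA (siLSM14A HU against NT), and of -0.93 to -0.45 and -0.94 to -0.47 in siCTRL. The number of members higher in polysomal than total RNA was then 2 to 4 in siCTRL NT and 1 to 4 in siCTRL HU, and 3654 to 8454 genes were called in siCTRL NT. With GC correction the median of the members in siCTRL NT fell from 0.75 to 0.47 (0.49 with the block). The causes of these shifts were not tested. Leaving out both siLSM14A replicate 2 samples was chosen after seeing the data.

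Counts of genes called moved more. Leaving out replicates gave 0 to 16 in TE, 0 to 1 in polysomal and 0 to 6 in total RNA for siLSM14A HU against NT, and 0 to 2 in polysomal and 0 to 6 in total RNA for siCTRL HU against NT. For siLSM14A against siCTRL without HU it gave 28 to 80 in total RNA (71 with all), and with HU 2 to 8 in polysomal RNA (8) and 46 to 101 in total RNA (100). DESeq2 called 1 gene in total RNA of siCTRL HU against NT, 8 in polysomal and 200 in total RNA of siLSM14A against siCTRL without HU, and 22 and 189 with HU. The polysomal count without HU (2 in the reported fit) was 4 with no filter and 6 with GC correction. GC correction gave 119 in total RNA without HU and 159 with HU.

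With the replicate block, genes called in siCTRL HU against NT rose from 0 to 15 in total RNA (26 with GC correction) and from 0 to 1 in polysomal RNA. In siLSM14A against siCTRL the block gave 45 in total RNA without HU, and 855 in total RNA (721 with GC correction) and 40 in polysomal RNA (21 with GC correction) with HU. No member was called in these contrasts with the block. At 15 to 53 polysomal counts of PCDHGA2 per library, counting error limits what can be told apart.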
